A study of Mus musculus with 4 samples.

Results

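The comparison set the array labelled NSC-Ceacam1L against the array labelled NSC and took in every named gene with a probe that the scanner software called well above background on either array, which were 15491 of 22737 genes with a probe. Of these, 13947 were well above background on both arrays, 1217 on NSC-Ceacam1L only and 327 on NSC only. NSC-Ceacam1L were p53-/- neural stem cells, taken from mouse embryo brain at E14.5, in which the long form of Ceacam1 was expressed, and NSC were p53-/- neural stem cells of the same origin. Both were kept in medium without serum, and the labels describe transfection and 1 week of hygromycin selection for all samples without saying whether the NSC cells had received an empty vector. The series holds 4 groups of 1 array each. The remaining groups, NSCL61-Ceacam1sh and NSCL61, are a glioma-initiating p53-/- line with and without a hairpin against Ceacam1. The series' stated interest in this comparison was in genes downstream of Ceacam1.

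Ceacam1 is an adhesion molecule of the immunoglobulin superfamily, and its long form ends in a cytoplasmic tail with tyrosine motifs that recruit SH2-domain phosphatases and Src-family kinases. Neural stem cells in culture divide in response to growth factors and can turn into astrocytes, oligodendrocytes and neurons. In embryonic neural cells, signalling through the shared cytokine receptor gp130 and STAT3, together with BMP signalling, is known to turn on astrocyte genes such as Gfap.

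Signals are given as log2 of the processed signal relative to the 75th percentile of the same array, so 0 is a bright probe and the dimmest probes well above background lay at -4.85 on NSC-Ceacam1L and -4.27 on NSC. A difference is the NSC-Ceacam1L value minus the NSC value in log2 units, and ± gives the error that the scanner software models for the spots. Each group has 1 array, so differences have no replicate check and no p-value, and precision is limited by that number. Higher and lower mean a difference of 2-fold or more, provided its probe was well above background on the brighter array. A gene well above background on 1 array only is given as "at least" a fold, the bright value set against the dim array's value or that array's dimmest detectable signal, whichever is higher. Of the genes evaluated, 1617 (10.4%) were higher and 949 (6.13%) lower, 63.0% of the 2566 counted genes being higher, and the median difference was -0.10. That split depended on the scaling: 74.4% of counted genes were higher under cyclic loess and 84.2% with scaling to the spike-in probes, under which the median difference of genes seen on both arrays moved up by 0.19 and 0.38. It also moved with detection, whose limit was lower on NSC-Ceacam1L. Of the 1617 higher genes, 725 were seen on 1 array only, as were 311 of the 949 lower genes. Over genes seen on both arrays, 58.3% of counted genes were higher. The 7246 genes not evaluated had a median difference of -0.58. Among genes seen on both arrays, 70.8% differed by less than 1.5-fold, 194 were higher by 4-fold or more and 51 lower by as much. Counts of higher and lower list members below are to be read beside the shares of all evaluated genes, 10.4% and 6.13%.

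No probe analysed here was named for Ceacam1, so the labels could not be checked against the manipulated gene. Among 20 probes of Ceacam genes, those of Ceacam20 (-2.87 on NSC-Ceacam1L, -2.47 on NSC) and Ceacam5 (-4.68 and -6.52) had a signal well above background, the Ceacam5 probe on NSC-Ceacam1L only. The 75th percentiles of the processed signal were 571 on NSC-Ceacam1L and 480.0 on NSC, and 29550 and 27414 probes were well above background. Array position and group cannot be told apart, and all 4 arrays carry the same scan time to the minute. Of the genes seen on both arrays, the 2790 brightest had a median difference of -0.30 and the 2790 dimmest one of -0.06. In bulk samples such as these, a different number of cells of a type and a different amount of RNA per cell cannot be told apart.

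Gfap, the intermediate filament of astrocytes, had the largest difference of all genes seen on both arrays. Its probe (chromosome 11, 102751813 to 102751872, minus strand, mm9) read 4.32 on NSC-Ceacam1L and -3.01 on NSC, a 160.5-fold difference (7.33 ± 0.25), and its other probe seen on both arrays differed by 6.43. The other intermediate filaments of astrocytes did not follow it, with Vim at 7.50 on NSC-Ceacam1L against 7.22 on NSC and Synm at -2.91 against -3.00. S1pr3, a receptor for sphingosine-1-phosphate, read 2.15 on NSC-Ceacam1L against -3.55 on NSC (5.70 ± 0.28; chromosome 13, 51517079 to 51517138, plus strand, mm9). C4b, a component of the complement cascade, read 2.90 against -2.48 (5.38 ± 0.22; chromosome 17, 34865328 to 34865387, minus strand, mm9). Socs3, which blocks gp130 signalling after STAT3 has induced it, read 4.92 on NSC-Ceacam1L and 0.18 on NSC. Each of these genes was dim or near the 75th percentile on NSC and above it on NSC-Ceacam1L. Of the genes well above background on both arrays with 2 or more probes, 343 were counted as higher or lower, and in 22 of them the probes pointed in both directions.

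Promoters are printed for 5 of the 7 genes that lead the lists with the most counted members, to show the motifs searched in their setting. The others, Ccn1 of the matrix list and Pcdh8 of the adhesion list, held 1 match and 0 matches. Each is 300 bases, 250 before to 50 after the start annotated by RefSeq on GRCm38.p6, in the gene's own direction, and 12024 of the 15491 evaluated genes had one. Capitals mark matches, on either strand, of TTCNNNGAA (STAT), GAAA and GAAA separated by NN (interferon response), ACGTG or GCGTG (hypoxia response), and TTTCCCGC or TTTGGCGC (E2F). ACGTG overlaps its own reverse complement in CACGTG. A match describes letters in this window and is not a measured site of binding. The Gfap promoter (chr11:102897151-102897450, minus strand) held 1 match, the STAT motif at -2 from the start. That motif stood in 7.04% of the promoters of evaluated genes, 8.30% of all 32851 promoters and, among 6 promoters of higher genes of the gp130 and STAT3 list, in that of Socs3 alone.
Gfap: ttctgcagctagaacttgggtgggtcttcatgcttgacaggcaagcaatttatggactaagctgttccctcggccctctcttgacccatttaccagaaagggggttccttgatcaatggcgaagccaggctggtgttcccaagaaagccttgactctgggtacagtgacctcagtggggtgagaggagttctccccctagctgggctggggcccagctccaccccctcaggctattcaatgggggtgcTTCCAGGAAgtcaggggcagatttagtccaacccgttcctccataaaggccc

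**Figure D1:**
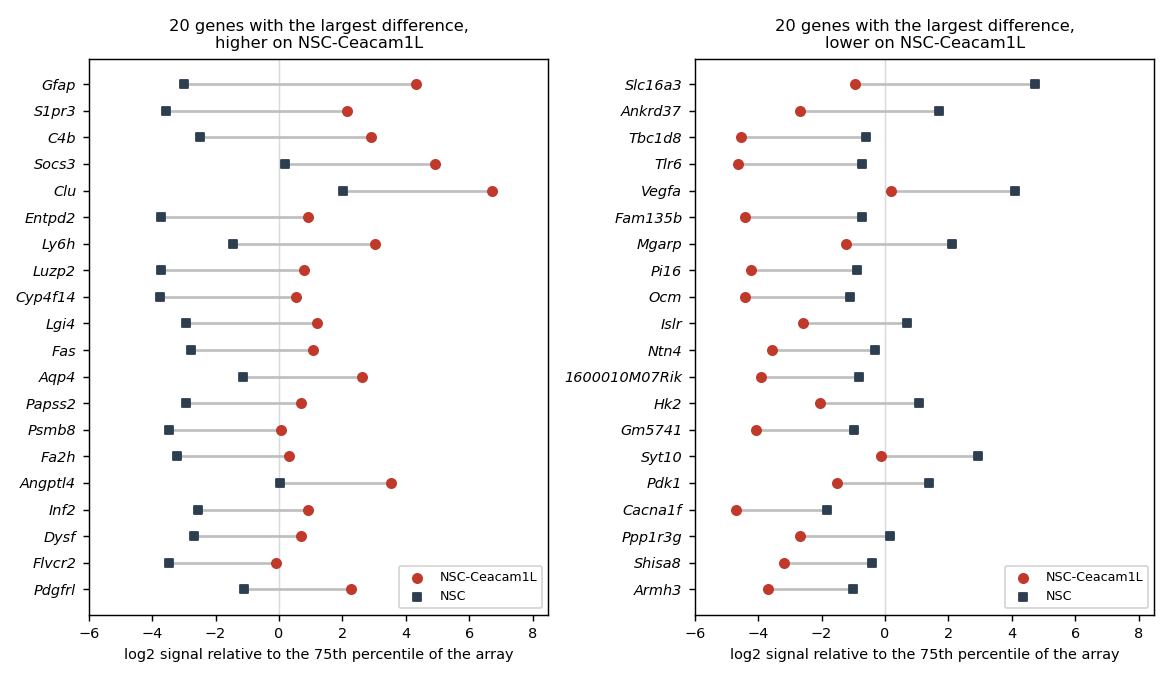
Log2 signal relative to each array's 75th percentile (horizontal axis) for the 20 genes with the largest positive and the 20 with the largest negative difference among genes detected on both arrays. Circles are NSC-Ceacam1L and squares NSC, 1 array each; Gfap spans 4.32 to -3.01 and Slc16a3 -0.96 to 4.74.

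The remaining genes among the 20 with the largest positive differences came from several cell functions. Entpd2, an ectonucleotidase that breaks down extracellular ATP, differed by 4.66 ± 0.33, and the neural surface protein gene Ly6h by 4.50 ± 0.21. Luzp2 differed by 4.49 ± 0.33, and Cyp4f14, a cytochrome P450 that oxidises lipid mediators, by 4.30 ± 0.33. Lgi4, which Schwann cells secrete and need for myelination, read 1.19 on NSC-Ceacam1L against -2.95 on NSC, and Fa2h, which makes the hydroxylated fatty acids of myelin lipids, read 0.31 against -3.21. Fas, a death receptor, differed by 3.83 ± 0.24, the sulfate donor synthase Papss2 by 3.61 and the immunoproteasome subunit Psmb8 by 3.54. The lipase inhibitor Angptl4 (3.51), the formin Inf2 (3.45), the membrane repair protein gene Dysf (3.39), the transporter gene Flvcr2 (3.38) and Pdgfrl (3.36) completed this group with Clu and Aqp4.

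Slc16a3, which encodes the lactate exporter MCT4, had the largest negative difference. It read -0.96 on NSC-Ceacam1L against 4.74 on NSC (-5.70 ± 0.20; chromosome 11, 120820030 to 120820089, plus strand, mm9), and its other probe differed by -5.59. Ankrd37, a target of hypoxia-inducible factors, read -2.68 against 1.69, and the angiogenic growth factor gene Vegfa read 0.18 against 4.10. Mgarp, which encodes a mitochondrial protein also known as a hypoxia target, read -1.23 against 2.11. Hk2, Pdk1, Syt10, Islr, Ntn4, Ppp1r3g and Shisa8 differed by -3.10, -2.90, -3.07, -3.28, -3.24, -2.86 and -2.79. The Toll-like receptor gene Tlr6 was bright on neither array, at -4.65 on NSC-Ceacam1L and -0.72 on NSC, and the same held for Tbc1d8 (-4.54 and -0.59), Fam135b (-4.43 and -0.71), Pi16 (-4.22 and -0.89) and Ocm (-4.42 and -1.09). The last genes of this group were 1600010M07Rik (-3.10), Gm5741 (-3.09), Cacna1f (-2.90) and Armh3 (-2.69).

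Among genes seen on 1 array only, the largest bounds for NSC-Ceacam1L were those of the matricellular gene Ccn2 and the oncostatin M receptor gene Osmr, each at least 27.2-fold higher. Ccn2 read 0.50 on NSC-Ceacam1L and -4.82 on NSC, and Osmr 0.50 and -5.47. They were followed by the signalling adaptor Traf1 (at least 20.5-fold), Igsf1 (at least 20.2-fold), the lysophosphatidic acid receptor Lpar1 (at least 19.4-fold), the astrocyte gap junction gene Gjb6 (at least 19.2-fold), Paqr6 (at least 18.9-fold) and the chitinase-like Chil1 (at least 16.9-fold). The largest bounds in the other direction belonged to 4930563E18Rik (at least 77.1-fold lower), the slow troponin gene Tnni1 (at least 33.2-fold), Hoxc12 (at least 29.3-fold), B430306N03Rik and Krtap19-3 (at least 28.9-fold each), Plb1 and Myo3a (at least 26.4-fold each), 1700102P08Rik (at least 25.1-fold), Vmn1r118 (at least 24.0-fold) and A530016L24Rik (at least 23.3-fold). Olfactory receptor genes, which neural stem cells are not known to use and whose family holds near-identical members, show how such calls spread: 30 were higher and 33 lower of 128 evaluated, and 61 of these 63 were seen on 1 array only. They included Olfr1225 and Olfr1340, at least 22.9-fold and 17-fold higher, and Olfr933, at least 22.2-fold lower. Of the 10 genes with the largest bounds lower, only Tnni1 and Plb1 were well above background at that probe on NSCL61 or NSCL61-Ceacam1sh. The others were detected on the NSC array alone. On NSC, B430306N03Rik and Krtap19-3 both read 0, and Plb1 and Myo3a both read -0.13. Among the 10 with the largest bounds higher, Olfr1225, Olfr1340, Igsf1 and Gjb6 were detected on the NSC-Ceacam1L array alone. In all, 1036 of the 1544 genes seen on 1 array were counted as higher or lower.

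Many astrocyte genes were higher. Of 38 astrocyte genes, all evaluated, 18 were higher and 0 lower, against 10.4% and 6.13% of all genes, and the list median was 0.86 against -0.10. Among channels and gap junctions, the water channel Aqp4 read 2.63 on NSC-Ceacam1L against -1.14 on NSC, and the connexin gene Gja1 1.63 against -1.13. Glutamate and amino acid handling was represented by the serine transporter Slc7a10 (2.39 ± 0.23), the glutamate transporter Slc1a2 (1.54, with its 3 probes between 1.54 and 2.10) and glutamine synthetase Glul (1.23), while Slc1a3, the glutamate transporter already present in radial glia, differed by -0.07. The lipid carriers Clu and Apoe and the cholesterol exporter Abca1 read 6.73, 8.85 and 3.86 on NSC-Ceacam1L against 2.01, 6.46 and 1.74 on NSC. Angiotensinogen Agt (3.07 ± 0.21), Ndrg2 (2.23) and the calcium-binding protein gene S100b (2.12) were higher as well.

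The transcription factors of the astrocyte lineage differed little beside these genes. Sox9 read 3.55 on NSC-Ceacam1L and 3.26 on NSC, and Nfia, Nfib and Nfix differed by 0.05, -0.42 and 0.59. Fabp7 and Fgfr3, which mark astrocyte precursors, differed by -0.51 and -0.10. Of the 22 neural stem cell genes, the SHH effector gene Gli2 (1.59 ± 0.27) was higher and the matrix protein gene Tnc (-2.46 ± 0.21) lower. The others included Sox2 (0.27), Nr2e1 (0.01), Pax6 (0.33), Prom1 (0.84) and Nes (-0.89), and the list median was -0.02.

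**Figure D2:**
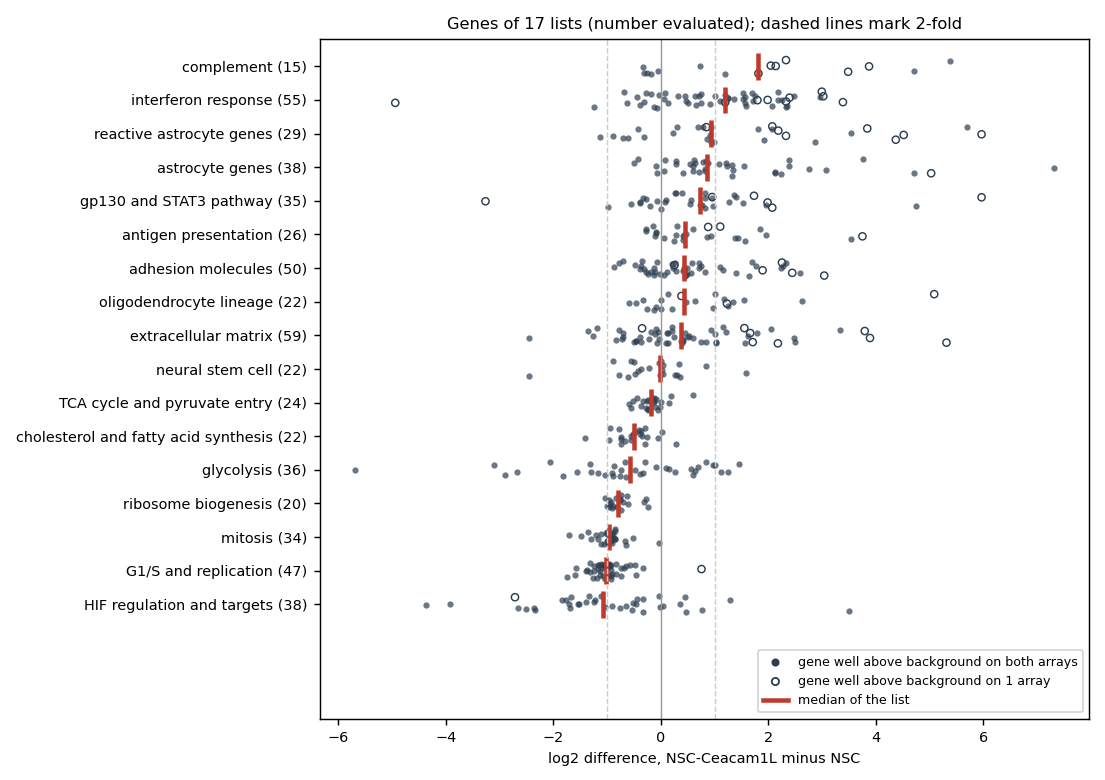
Log2 difference, NSC-Ceacam1L minus NSC (horizontal axis), for every evaluated gene of 17 lists, with the number of genes in brackets. Filled points are genes well above background on both arrays, open points on 1 array, and bars are list medians, which run from 1.82 (complement) to -1.07 (hypoxia-inducible factors).

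Genes known to mark reactive astrocytes were higher in 13 of 29 cases and lower in 1, with a median of 0.94; S1pr3, Osmr, Psmb8 and several others stand in other lists too. The protease inhibitor Serpina3n was at least 5.23-fold higher and the asparaginase gene Aspg at least 10.2-fold higher. The heat shock protein gene Hspb1 read 0.90 on NSC-Ceacam1L against -1.01 on NSC, the matrix gene Fbln5 0.23 against -2.64, and Cd14 -0.42 against -2.23. Ptgs2, which encodes an inducible prostaglandin synthase, was at least 5.03-fold higher. Not all of the list moved this way: Fkbp5 differed by -1.14, and Lcn2 and Timp1, strongly induced in reactive astrocytes of mice, by -0.88 and -0.70.

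In the gp130 and STAT3 pathway, 10 of 35 evaluated genes were higher and 1 lower. The median was 0.72, 0.54 over the 29 genes seen on both arrays and 0.32 with normexp background correction. Among receptors, the shared subunit Il6st read 2.55 on NSC-Ceacam1L against 1.28 on NSC, and the oncostatin M receptor was seen on NSC-Ceacam1L only. The ciliary neurotrophic factor receptor Cntfr differed by 1.37 at its brighter probe and by -0.49 at the other, and the LIF receptor Lifr by -0.38. Of the ligands, Il6, Lif and Osm were not well above background on either array, Cntf differed by -0.21, and the cytokine gene Clcf1 was at least 1.32-fold higher. Stat3 itself differed by 0.26 and Jak1 by 0.54. Of 11 evaluated targets, 3 were higher and 1 lower (median 0.10), and of 6 feedback inhibitors, 2 were higher and 0 lower. Among these genes, Socs3 (4.74 ± 0.20), Socs2 (1.40), Junb (1.96) and Cebpd (1.54) were higher, Bcl3 differed by -0.55 and Nnmt was at least 2.26-fold lower.

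BMP pathway genes were higher in 8 of 32 cases and lower in 1 (median 0.22). The ligand Bmp4 read 0.05 on NSC-Ceacam1L against -3.23 on NSC, while Bmp7 read 2.43 against 3.69. Of the inhibitor of DNA binding genes, which BMP signalling induces, Id4 differed by 2.78 ± 0.20 and Id1, Id2 and Id3 by 0.56, 0.66 and -0.49. Notch pathway genes were higher in 1 of 21 cases, the target Hey2 (at least 2.78-fold), with Hes1 at 0.70 and Hes5 at -0.54. Among 25 Wnt pathway genes, 5 were higher and 0 lower: the secreted modulators Dkk3 (2.77 ± 0.21) and Sfrp1 (1.71), the ligands Wnt5b (2.24) and Wnt7b (1.39) and the receptor-removing ligase Rnf43 (1.09). Axin2, a general target of beta-catenin signalling, differed by -0.46, and Lef1 by -0.10.

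Oligodendrocyte genes were higher in 7 of 22 cases and lower in 0 (median 0.42, and 0.21 over the 19 seen on both arrays). Ugt8a, which makes the myelin lipid galactosylceramide, read -0.44 on NSC-Ceacam1L against -1.99 on NSC, and Mbp -1.47 against -2.80. Enpp6, a marker of newly forming oligodendrocytes, was at least 7.49-fold higher, and Bcas1 and Gpr17, of the same stage, differed by 1.25 and 1.18. The lineage transcription factors Olig1, Olig2 and Sox10 differed by -0.25, -0.10 and 0.14. Neuron and neuroblast genes were higher in 5 of 20 cases, among them the synaptic vesicle gene Syt1 (1.86 ± 0.26) and the interneuron factor Dlx2 (1.34), while the neuronal tubulin Tubb3 differed by 0.24. Of 8 ependymal genes, Foxj1 (1.12) and Rsph1 (1.24), both needed for motile cilia, were higher and Pifo (-1.97) lower.

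Of the lists by function, the interferon response held the largest number of higher genes, 30 of 55 evaluated. It had 2 lower and a median of 1.20, where all evaluated genes had 10.4% higher, 6.13% lower and a median of -0.10. Interferons act through cell surface receptors and the transcription factors these activate to turn on antiviral genes. Of 11 receptors and transcription factors, 3 were higher and 0 lower, and of 8 sensors, 3 were higher and 1 lower. The effectors made up most of the higher genes: 19 of 25 effectors were higher and 0 lower. Parp14 read -0.66 on NSC-Ceacam1L against -3.61 on NSC, Ifit3 -0.13 against -2.49, Oasl2 -0.10 against -2.35 and Usp18, which turns the response down, -0.73 against -2.92. Isg15, the ubiquitin-like modifier, read 2.04 against 0.68. Among the immunity-related GTPases, Igtp read 0.54 on NSC-Ceacam1L against -1.95 on NSC and Irgm1 1.86 against -0.48, and Irgm2 was at least 10.5-fold higher. Most of these genes were dim on NSC and moderate on NSC-Ceacam1L. The Igtp promoter (chr11:58199306-58199605, plus strand) is shown because Igtp leads the list among genes seen on both arrays that have a promoter, and it held the STAT and interferon motifs close together, at -45 and -34 from the start, and 1 match of each hypoxia motif. The interferon motif stood in 10 of 23 promoters of higher interferon genes (43.5%) and, nearly as often, in 18 of 43 of the whole list (41.9%), against 2.92% of the promoters of evaluated genes and 3.44% of all promoters.
Igtp: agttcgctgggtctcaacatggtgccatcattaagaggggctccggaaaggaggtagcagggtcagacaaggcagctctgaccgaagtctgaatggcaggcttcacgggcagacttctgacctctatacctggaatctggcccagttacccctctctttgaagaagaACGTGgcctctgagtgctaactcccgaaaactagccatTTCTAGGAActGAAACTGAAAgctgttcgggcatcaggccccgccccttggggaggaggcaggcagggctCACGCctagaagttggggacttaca

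Not every interferon gene was higher. Mx1 was at least 6.56-fold lower while Mx2, annotated as a transcribed pseudogene, differed by 1.01, Cgas, the sensor of cytosolic DNA, read 0.10 on NSC-Ceacam1L and 1.35 on NSC, and Iigp1 and Gbp5 differed by -0.31 and -0.13. The receptors Ifnar1, Ifnar2, Ifngr1 and Ifngr2 differed by -0.07, -0.18, -0.27 and 0.08. Irf9 read 1.55 against 0.36, Irf7 was at least 1.73-fold higher, and Irf3 and Stat2 differed by -0.45 and -0.38. Gbp and interferon-inducible GTPase genes have close copies in the mouse genome, so their probes may share signal. In the hairpin comparison, which uses no array of this one, 16 of the 30 higher genes were again higher and 5 lower, where 23.4% and 24.3% of all evaluated genes were higher and lower.

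Antigen presentation genes were higher in 8 of 26 cases and lower in 0 (median 0.44). Nlrc5, the transactivator of class I genes, was at least 5.47-fold higher. The immunoproteasome subunits Psmb8 and Psmb9 read 0.07 and -0.28 on NSC-Ceacam1L against -3.47 and -1.85 on NSC, and Psmb10 differed by -0.08. The peptide transporter Tap1, Tap2 and the loading factors Tapbp and Tapbpl differed by 1.85, 1.95, 1.44 and 1.38. The class I heavy chains, whose genes are near-identical, differed less: H2-D1 by 0.94, H2-K1 by 0.24 and B2m, their light chain, by 0.47.

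Complement genes were higher in 9 of 15 evaluated cases and lower in 0, with a median of 1.82. That median rested on genes seen on 1 array: it was -0.05 over the 9 genes seen on both. Beside C4b and the regulator Clu, C2 read 1.91 on NSC-Ceacam1L against 0.71 on NSC. C1ra (at least 2.58-fold), C1s1 (at least 2.17-fold) and the inhibitor Serping1 (at least 3.67-fold) were seen on NSC-Ceacam1L only. The membrane inhibitor Cd59a was at least 3.83-fold higher. C3, the central component, read -0.32 as a difference, and C1qa and C1qc were not well above background. Microglia are a source of complement in brain. Of 14 microglia markers, 6 were evaluated and 0 were higher or lower, and Aif1, Cx3cr1, P2ry12, Ptprc, Trem2 and Tyrobp were not well above background on either array. The summed linear signal of all 14 markers was 33.5 on NSC-Ceacam1L and 27.8 on NSC, in units of the array's 75th percentile.

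Receptors and enzymes of purine and lysophospholipid signalling were higher in 7 of 27 cases and lower in 2 (median 0.40). Besides S1pr3, the receptor S1pr1 read 3.24 on NSC-Ceacam1L against 0.77 on NSC, and Lpar1 was seen on NSC-Ceacam1L only. Enpp2, which makes lysophosphatidic acid outside the cell, differed by 1.04. The ATP receptor P2ry2 differed by 2.20 ± 0.24 and the adenosine receptor Adora1 by 1.83 ± 0.20. Among the ectoenzymes, Entpd2 was higher, while Nt5e, which makes adenosine from AMP, read -2.09 on NSC-Ceacam1L and -0.27 on NSC.

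Of 59 extracellular matrix genes, 19 were higher and 4 lower (median 0.38), and the matricellular genes, which act on cells more than they build matrix, are given first. Of 10 matricellular genes, 7 were higher and 1 lower, with a median of 1.88, which was 0.79 over the 6 seen on both arrays. Ccn1 read 4.97 on NSC-Ceacam1L against 1.64 on NSC, and Thbs1 and Thbs2, secreted by astrocytes to promote synapses, were at least 7.14-fold and 3.94-fold higher. The perineuronal net component Tnr differed by 2.04 while Tnc, of the same family, differed by -2.46. Nid1, of basement membranes, read 2.71 against 0.24, and Mmp11 -0.29 against -2.78. The brain proteoglycans Bcan, Vcan and Ncan differed by -0.05, -0.10 and 0.60. Of 29 evaluated collagen genes, 13 were higher and 0 lower (median 0.82, and 0.41 with normexp background correction), led among those seen on both arrays by Col4a6 (1.73, and 0.42 at its other probe) and Col5a3 (1.66).

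Markers of fibroblasts and mural cells were given beside the matrix genes because such cells make matrix. Of 15, 8 were evaluated, 4 were higher and 0 lower, and the summed linear signal of all 15 was 29.6 on NSC-Ceacam1L against 10.1 on NSC. Acta2 read 2.84 against 0.56, Thy1 3.71 against 1.00 and Tagln 2.42 against 1.18, and Pdgfrb was at least 3.06-fold higher. Dcn, Lum, Postn and Col3a1 were not well above background on either array, and Col1a1 differed by -0.72. Of 10 endothelial markers, 4 were evaluated, and Cdh5, Cldn5 and Tek were not well above background. The part of such cells in the matrix values was not tested.

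Adhesion molecules were higher in 14 of 50 cases and lower in 0 (median 0.43). In the immunoglobulin family, to which Ceacam1 belongs, Igsf11 read 1.62 on NSC-Ceacam1L against -0.71 on NSC, the axonal protein gene Nfasc 1.38 against -0.88, Cadm3 -1.39 against -3.62 and Vcam1 4.03 against 2.39. Ncam1 and L1cam differed by -0.13 and -0.19. Among cadherins, Pcdh8 (2.58 ± 0.29) and Cdh11 (1.77) were higher and the neural cadherin Cdh2 differed by -0.12. Among integrins, Itgb5 (1.39), Itga1 (1.69) and Itgb3 (1.16) were higher, while the fibronectin receptor chains Itga5 and Itgb1 differed by -0.36 and -0.37. Of the 14 evaluated integrins of this list, 5 were higher. Their median was 0.01, and -0.32 over the 11 seen on both arrays. Of all 24 evaluated integrin genes by symbol, 8 were higher and 2 lower. Of 15 evaluated partners of Ceacam1 in signalling, only the Src-family kinase gene Lyn passed 2-fold, at -1.60 on NSC-Ceacam1L against -0.24 on NSC, and Src, Ptpn11 and Flna differed by 0.28, -0.15 and 0.29.

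Genes of the hypoxia-inducible factor system were lower. These factors are degraded when oxygen is present, through prolyl hydroxylation by Egln enzymes, and otherwise turn on genes for glycolysis, blood vessel growth and mitophagy. Of 38 evaluated genes, 20 were lower and 2 higher, against 6.13% and 10.4% of all genes, and the median was -1.07. The factors themselves did not follow: Hif1a read 1.38 on NSC-Ceacam1L and 1.02 on NSC, Epas1 was higher at 3.85 against 2.57 (with its 3 probes between -0.11 and 2.34), and Arnt and Vhl differed by -0.52 and -0.44. Of 8 chromatin and pH targets, 2 were lower and 0 higher (median -0.49). Of 9 targets in mitochondria and growth control, 7 were lower and 0 higher. Ddit4, an inhibitor of mTOR signalling, read 4.98 on NSC-Ceacam1L against 7.48 on NSC, Bnip3, a mitophagy receptor, 3.66 against 6.01, and Fam162a 4.14 against 6.50.

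Of 7 prolyl and lysyl hydroxylases, 5 were lower and 0 higher. The collagen hydroxylase P4ha2 differed by -2.67, Egln3 by -1.77, P4ha1 by -1.54, Plod2 by -1.34 and Egln1 by -1.11, whereas Plod1 (0.77) and Egln2 (-0.03), which is not known as a hypoxia target, did not pass 2-fold. Of 8 secreted targets, 6 were lower. Beside Vegfa, the vasoactive peptide gene Adm read 0.78 on NSC-Ceacam1L against 2.30 on NSC, Mif 6.80 against 8.05, Loxl2 -1.14 against 0.70 and Igfbp3 1.21 against 2.61. Angptl4, also known as a target of PPAR receptors, was the exception at 3.54 against 0.03. The promoters of Ankrd37 (chr8:45999801-46000100, minus strand) and Slc16a3 (chr11:120948817-120949116, plus strand), which lead the hypoxia and glycolysis lists, held 4 and 2 matches of the hypoxia motifs. Either hypoxia motif stood in 14 of 16 promoters of lower hypoxia genes (87.5%) and in 22 of 29 of the whole list (75.9%). For glycolysis, it stood in 7 of 11 of the lower genes (63.6%) and 22 of 31 of the whole list (71.0%). The share was 60.1% of the promoters of evaluated genes and 43.8% of all promoters. ACGTG alone stood in 75% of the lower hypoxia genes, 51.7% of the whole list, 24.5% of evaluated genes and 19.6% of all promoters.
Ankrd37: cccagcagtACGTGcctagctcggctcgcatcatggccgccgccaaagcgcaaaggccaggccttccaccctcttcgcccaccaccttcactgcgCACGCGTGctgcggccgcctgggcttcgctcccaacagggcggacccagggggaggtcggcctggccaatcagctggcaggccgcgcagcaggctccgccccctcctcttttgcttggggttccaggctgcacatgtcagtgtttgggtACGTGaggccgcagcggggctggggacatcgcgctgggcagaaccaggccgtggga
Slc16a3: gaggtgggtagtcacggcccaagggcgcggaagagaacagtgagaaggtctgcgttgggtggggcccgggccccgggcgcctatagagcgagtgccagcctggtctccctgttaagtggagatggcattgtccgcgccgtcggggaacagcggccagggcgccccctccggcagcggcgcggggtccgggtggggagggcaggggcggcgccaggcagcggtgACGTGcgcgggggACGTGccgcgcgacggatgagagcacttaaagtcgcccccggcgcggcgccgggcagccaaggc

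**Figure D3:**
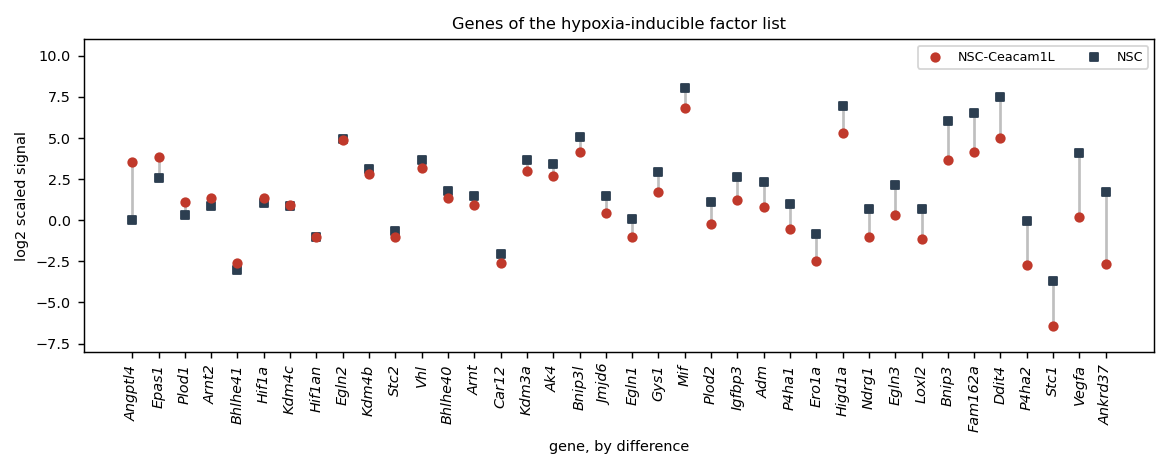
Log2 scaled signal (vertical axis) of the 38 evaluated genes of the hypoxia-inducible factor list, ordered by difference. Circles are NSC-Ceacam1L and squares NSC, 1 array each; Angptl4 and Epas1, at differences of 3.51 and 1.28, stand at the left, and Vegfa and Ankrd37, at -3.93 and -4.37, at the right.

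Glycolysis genes were lower in 11 of 36 cases and higher in 4 (median -0.57), and the enzymes with several isozymes differed by isozyme. Of the hexokinases, Hk2, the inducible form, read -2.04 on NSC-Ceacam1L against 1.06 on NSC, while Hk1 read 7.22 against 7.89. Among phosphofructokinases, Pfkl read 0.56 against 3.23 and Pfkm 4.83 against 4.13. The aldolase gene Aldoa differed by -1.29, whereas Aldoc, the brain and astrocyte form, differed by 0.84. Enolase and lactate dehydrogenase repeated this: Eno1 (-0.90) and Eno2 (0.97), and Ldha (-2.06) and Ldhb (0.64). The triose isomerase Tpi1, the isomerase Gpi1 and the mutase Pgam1 differed by -1.57, -1.04 and -1.16, and Gapdh, Pgk1 and Pkm by -0.77, -0.89 and -0.87.

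Pyruvate dehydrogenase kinases, which close the entry of pyruvate into mitochondria, split as well. Pdk1 read -1.51 on NSC-Ceacam1L against 1.39 on NSC, while Pdk2 and Pdk4 differed by 1.12 and 1.46 and the opposing phosphatase Pdp1 by 1.25. The glucose transporter Slc2a1 read 2.07 against 3.90 and Slc2a3 1.65 against 2.40. The lactate carriers other than Slc16a3 did not pass 2-fold, with Slc16a1 at -0.65 and Slc16a7 at 0.59. None of 24 genes of the tricarboxylic acid cycle and pyruvate entry passed 2-fold, at differences of -0.59 to 0.60.

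**Figure D4:**
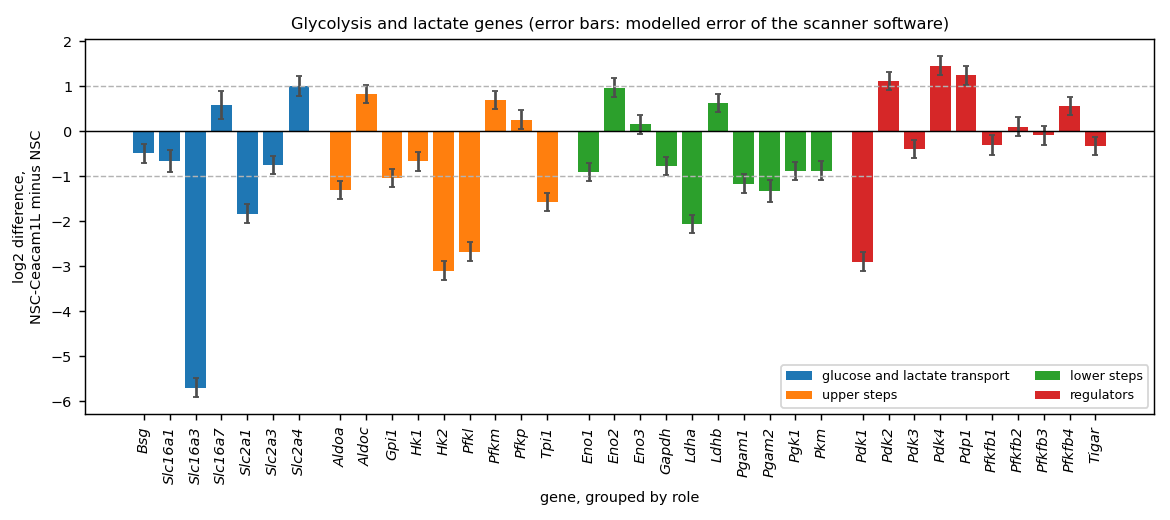
Log2 difference, NSC-Ceacam1L minus NSC (vertical axis), of the 36 evaluated genes of glycolysis and lactate transport, coloured by role, with the modelled error of the scanner software as error bars. Slc16a3 (-5.70), Hk2 (-3.10), Pdk1 (-2.90) and Pfkl (-2.67) lie lowest, and Pdk4 (1.46) highest.

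DNA replication genes gave many small negative differences. Of 47 evaluated genes of the G1/S transition and replication, 25 were lower and 0 higher, the median was -1.01, and 46 of 47 differences were negative at this scaling. Of the licensing genes, which load the replicative helicase on DNA, 9 of 12 were lower, such as Mcm5 (2.65 on NSC-Ceacam1L against 3.97 on NSC), Mcm3 (3.63 against 4.87) and the loading factor Cdc6 (-1.78 against -0.17). At the fork, 7 of 16 genes were lower, among them the polymerase gene Pold1 (-1.39) and the sliding clamp Pcna (-1.08). The D-type cyclins Ccnd1 and Ccnd2, which carry growth factor signals into the cell cycle, differed by -1.13 and -1.19. E2f7, a repressor of E2F targets, had 2 probes that disagreed, at -1.75 and 0.94. Its promoter (chr10:110745189-110745488, plus strand), shown because its brighter probe has the largest difference of the list, held 1 E2F match. An E2F motif stood in 10 of 21 promoters of lower replication genes (47.6%), among them Mcm3, Mcm5, Mcm6, Mcm7, Cdc6 and Pola1, and in 14 of 38 of the whole list (36.8%), against 2.73% of the promoters of evaluated genes and 1.56% of all promoters.
E2f7: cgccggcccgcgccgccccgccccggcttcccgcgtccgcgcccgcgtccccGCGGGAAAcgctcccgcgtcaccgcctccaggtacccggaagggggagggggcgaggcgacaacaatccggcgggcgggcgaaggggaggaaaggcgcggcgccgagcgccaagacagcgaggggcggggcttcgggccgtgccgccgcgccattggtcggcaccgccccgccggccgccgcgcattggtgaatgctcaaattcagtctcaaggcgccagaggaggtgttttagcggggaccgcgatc

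All 34 genes of mitosis had a negative difference at this scaling, and 12 passed 2-fold (median -0.97). They included the kinase genes Aurkb (-1.70 ± 0.32), Aurka (-1.05) and Cdk1 (-1.20), the regulator Mybl2 (-1.49) and the checkpoint gene Bub1 (-1.36), while Mki67 read -0.98 and Top2a -0.85 as differences. Of 10 genes for CDK inhibitors and the RB family, none passed 2-fold, with Cdkn1a at 0.21, Cdkn1b at -0.06 and Cdkn2a at -0.55. Histone genes, many of which are near-identical copies, were lower in 19 of 54 cases and higher in 2 (median -0.59), as with H1f5 at 3.51 on NSC-Ceacam1L against 5.35 on NSC. Ribosome biogenesis genes were all negative, at -0.23 to -1.03 (median -0.79), and only the nucleolar methyltransferase Fbl passed 2-fold. All 80 ribosomal protein genes lay between -0.90 and -0.34, and the 20 housekeeping genes had a median of -0.34, which was 0.09 under cyclic loess and 0.05 with spike-in scaling, with Hprt lower at 1.95 against 3.49. These last groups are among the brightest genes, whose median difference was -0.30.

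**Figure D5:**
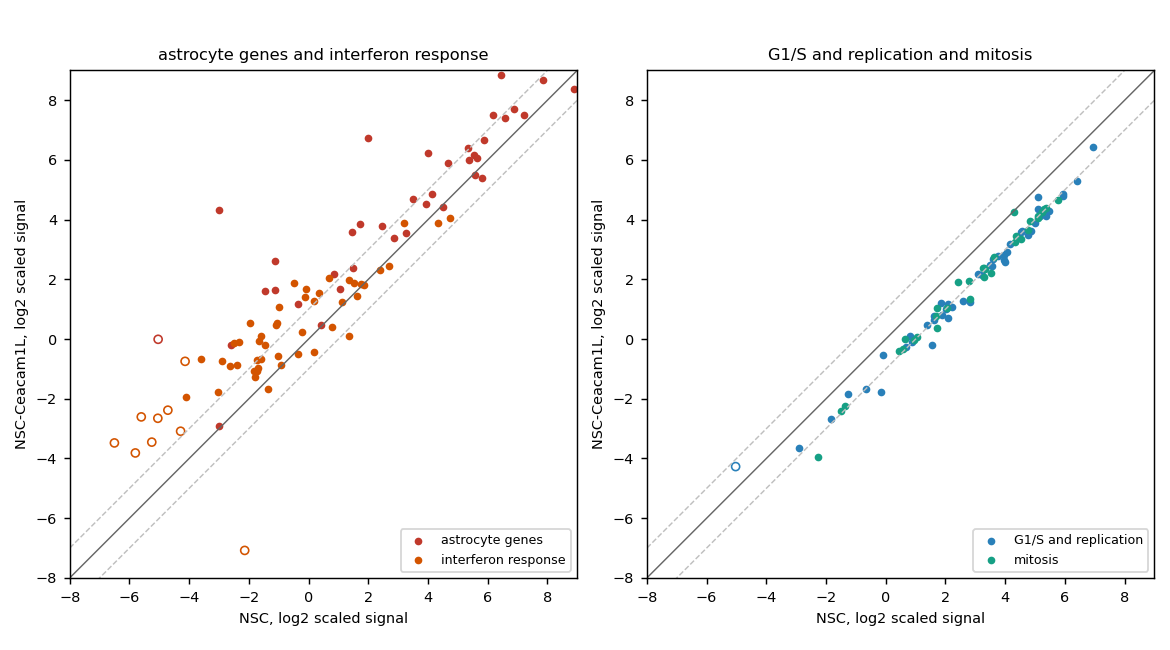
Log2 scaled signal on NSC-Ceacam1L (vertical axis) against NSC (horizontal axis) for astrocyte and interferon genes (left) and for replication and mitosis genes (right). Solid lines mark equal signal and dashed lines 2-fold, and open points are genes well above background on 1 array; of the replication genes, 46 of 47 lie below equality.

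Known targets of p53, which both cultures lack, were higher in 3 of 19 cases: Fas, Perp (2.03 ± 0.26) and Pmaip1 (1.37). Mdm2 and Bax differed by 0.12 and -0.42. Feedback genes and early targets of ERK signalling were higher in 2 of 24 cases (Dusp5 and Junb) and lower in 1 (Spred2), with a median of -0.33 that was 0.05 with spike-in scaling, and with Spry4 at -0.96, Dusp6 at -0.45, Fos at 0.76 and Myc at -0.76. Of 11 ErbB ligands and receptors, Nrg1 was at least 2.13-fold higher and the ligand Areg lower, at -2.42 on NSC-Ceacam1L against -0.98 on NSC, and Egfr differed by 0.08. Of 39 genes of the ATF4 response and amino acid metabolism, 5 were higher and 5 lower. The higher ones were Atf3 (1.93), Nupr1 (1.10), Ppp1r15a (1.03), Slc7a3 (1.15) and Slc7a11 (at least 1.82-fold). The lower ones included the folate enzymes Mthfd2 (-1.66) and Shmt1 (-1.51) and the glutamine transporter Slc1a5 (-1.68). As shares, 15.8% of p53, 8.33% of ERK, 9.09% of ErbB and 12.8% of ATF4 genes were higher, near the 10.4% of all genes. Lower were 0%, 4.17%, 9.09% and 12.8%, against 6.13% of all genes.

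Circadian clock genes were higher in 4 of 15 cases and lower in 0 (median 0.58). Dbp, an output gene of the clock, read 5.19 on NSC-Ceacam1L against 3.13 on NSC, the repressors Nr1d1 and Nr1d2 differed by 1.48 and 1.00 and Per3 by 1.62, while Arntl and Clock, which drive them, differed by -0.30 and -0.23. Antioxidant genes were higher in 4 of 31 cases (12.9%, near the 10.4% of all genes), namely Sod3 (2.32), Gstm1 (1.5), Mgst1 (1.38) and Gsta4 (1.16). Gstm1 has close copies in its family. Lysosome genes were positive in 23 of 30 cases with a median of 0.35, and 2 passed 2-fold, Ctsf (1.05) and Gpnmb (at least 3.44-fold). Cholesterol and fatty acid synthesis genes had a median of -0.50, with only the sterol carrier Stard4 (-1.42) past 2-fold. Of 14 chemokines and cytokines, Cxcr4 (1.55), Ackr3 (1.24) and Csf1 (1.19) were higher, and Ccl2 (-1.58) and Tslp (at least 4.79-fold) lower.

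Families named by symbol held further members. Of 269 evaluated solute carriers, 49 were higher and 12 lower. The urea transporter Slc14a1, known in astrocytes, was at least 11.1-fold higher, Slc22a4, which carries ergothioneine, at least 12-fold and the inositol transporter Slc5a11 at least 4.90-fold. Of 59 potassium channel genes, 9 were higher and 14 lower, with a median of -0.31 that was 0.07 with spike-in scaling. The mechanosensitive channel Kcnk2 was at least 11.7-fold higher, and Kcnn2 and Kcnk1 read 1.87 and 2.06 on NSC-Ceacam1L against -0.59 and 0.16 on NSC, whereas Kcnj14 and Kcnk7 were at least 22.2-fold and 16.8-fold lower. Of 365 evaluated zinc finger genes of the Zfp family, 8 were higher and 12 lower, and Zfp36, which marks cytokine mRNAs for decay, read -0.02 against -2.99. By gene type, 70 of 619 evaluated long noncoding RNA genes were higher (11.3%) and 78 lower (12.6%), and 1517 of 14379 protein-coding genes were higher (10.6%) and 820 lower (5.70%).

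The comparison of NSCL61-Ceacam1sh with NSCL61 shares no array with this one, and its cells are the glioma-initiating line. Of 14503 genes evaluated in both, 1197 were higher on NSC-Ceacam1L, and 575 of them (48.0%) were lower on NSCL61-Ceacam1sh and 332 (27.7%) higher, while 23.6% and 20.9% of all these genes were lower and higher there. Of the 714 lower on NSC-Ceacam1L, 363 (50.8%) were higher on NSCL61-Ceacam1sh and 145 (20.3%) lower. The 575 genes made up 16.8% of those lower with the hairpin, and the 363 made up 12% of those higher. By list, 15 of the 18 higher astrocyte genes were lower with the hairpin and 24 of the 25 lower replication genes higher. In contrast, 12 of the 19 higher matrix genes and 7 of the 13 higher reactive astrocyte genes were again higher with the hairpin. The lower genes of the hypoxia list were spread, with 5 higher, 5 lower and 10 in neither class. Gfap read -6.75 on NSCL61-Ceacam1sh, not well above background, and 7.97 on NSCL61.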

How the data were processed

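Total RNA of 4 mouse cultures was measured on 1-colour Agilent arrays, 1 array per group, and the NSC-Ceacam1L and NSC arrays were used here. The deposited scanner files give spot intensity as the processed signal, made with Agilent Feature Extraction 10.7.3.1 per the file headers, while the submitters' processing notes name version 9.1. The deposited table of processed log2 values, whose centring is unknown (column medians -0.20 for NSC-Ceacam1L and 0.25 for NSC), served as an alternative; its differences followed the scanner values with a slope of 1.0000 and an offset of -0.22 over 13947 genes.

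Control spots and outlier spots (143 and 187) were left out, no spot was saturated, spots of a probe were averaged, and log2 of the processed signal was set against each array's 75th percentile. A gene took its brightest probe over the 4 arrays. Gene names came from the NSC-Ceacam1L file, because 58 spots of the NSC file had altered names. The NSC file looked re-saved, with rounded values. Probe coordinates are those of the array design on mm9, and exon or UTR positions were not assigned.

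With 1 array per group no test was run, and genes past 2-fold were counted. The text names the 20 largest differences in each direction among genes seen on both arrays, the 10 largest bounds in each direction, and, in 38 lists and 11 symbol families, up to 4 of the largest differences in each direction and the members of small roles. A few other list members, given for comparison, were chosen after their values were seen. The members and lists were chosen with earlier results of these data known. Scaling and the 2-fold limit were tried on simulated data with planted 4-fold changes and capped noise. The simulation left out the background rule, the bounds and the choice of probe, so it does not check genes seen on 1 array. Tools were R 4.3.3 with limma 3.58.1 (normexp, quantile and cyclic loess alternatives), Python 3.11.15, pandas 2.3.3, numpy 2.4.6 and matplotlib 3.10.9. Results on a few list members are not reported here.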

Additional observations from a re-analysis of the deposited data

Results flagged for a closer look

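Probes without a gene name lie outside the gene comparison and were counted separately. Of 23823 such probes, 9325 were detected above background on either array. Of these, 770 (8.26%) were 2-fold or more higher on NSC-Ceacam1L than on NSC, and 1102 (11.8%) were 2-fold or more lower. Named genes, each counted once at its brightest probe while unnamed probes were counted singly, had the opposite balance, at 10.4% higher and 6.13% lower. With 1 array in each group, this difference was not tested.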

How the results depend on the processing

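No paired analysis was possible because each group has 1 array. With 1617 genes higher, 949 lower and 63.0% of counted genes higher in the comparison as reported, normexp background correction gave 746, 532 and 58.4%, spike-in scaling 2523, 473 and 84.2%, and a 1.5-fold limit 2644, 2634 and 50.1%. Counting only genes well above background on both arrays gave 892 higher (58.3% of counted genes), and no filter on dim probes gave 1517 lower, with 55.2% of counted genes higher. The share higher was 69.0% with median scaling, 70.0% with quantile normalization, 74.4% with cyclic loess and 64.9% in the authors' deposited table.

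The list medians moved mainly with the scaling. With spike-in scaling they were 1.24 for astrocyte genes, 1.33 for reactive astrocyte genes, 2.20 for complement, 1.58 for the interferon response, -0.19 for glycolysis, -0.68 for the hypoxia list, -0.63 for replication and -0.59 for mitosis. Cyclic loess gave 1.36 for astrocyte genes, -0.20 for glycolysis, -0.82 for the hypoxia list, -0.79 for replication and -0.74 for mitosis. Quantile normalization gave 1.31 for astrocyte genes, -0.30 for glycolysis and -0.86 for the hypoxia list. The mean of all probes gave 1.15 for reactive astrocyte genes. Normexp gave 0.26 for complement, 0.64 for the interferon response, 0.32 for gp130 and STAT3, 0.41 for collagens, 0.22 for matrix, 0.21 for oligodendrocyte genes and 0.37 for clock genes. No filter gave 0.40 for collagens, 0.21 for matrix and 0.24 for purine and lysophospholipid genes. The interferon median was 0.84 over genes seen on both arrays and 0.92 with no filter, where the complement median turned to -0.053 and -0.013; both choices change how dim genes are counted.

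Of 49 lists and families, 20 had a median of the other sign under some alternative, 15 with spike-in scaling and 10 with cyclic loess. For 13 of the 20, such as the tricarboxylic acid cycle, Wnt and CDK inhibitor lists, the median lay within the median modelled error of 0.20. Of the others, spike-in scaling turned the medians of ERK feedback genes (0.053), the IGF system (0.10), housekeeping genes (0.0495), potassium channels (0.070), Cxcl and Ccl chemokines (0.13) and olfactory receptors (0.15), and cyclic loess that of housekeeping genes (0.089). Spike-in scaling adds the same constant to every difference. Single genes were followed for 318 genes past 2-fold: the largest differences and bounds and every such member of the 38 lists, whether named above or not. Genes named only as members of a symbol family were not among them. Of the 318, Myrf alone turned, to -0.024 with normexp. In the same direction, 239 stayed past 2-fold with normexp, 247 when seen on both arrays and 266 with spike-in scaling. Cyclic loess kept 284, and each other alternative 289 or more. The spike-in scaling rests on 8 probes. Genes near background are limited by signal: 1544 of the evaluated genes were seen on 1 array only, and the modelled error covers neither cultures nor hybridizations.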
